A study of Arabidopsis thaliana with 18 samples.

Results

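Among 22746 non-control probe sets on the array, 197 behaved as transcripts induced by nitrogen depletion whose level was lower again in both overexpressers of the LBD factors. A probe set is a group of short probes that reads 1 transcript or a few. A member was a probe set whose mean log2 signal was at least 1 higher in nitrogen-depleted than in nitrogen-replete wild type, and at least 1 lower in each overexpresser than in depleted wild type (at least 2-fold each time). Of the 197, 89 are listed with exactly 1 gene, 4 with several and 104 with none, and those 108 are given by probe set identifier only. The members were chosen by these 3 differences of group means, so those values are described here without a test. The mutants played no part in the choice.

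Whole Col-0 seedlings of Arabidopsis thaliana aged 9 days were profiled on 18 Affymetrix arrays, 3 for each of 6 groups, labelled as biological replicates. The LBD37 overexpresser, the LBD38 overexpresser and wild type without nitrogen grew for 7 days on full nutrients (4 mM KNO3) and for a further 2 days with no nitrogen added. The T-DNA insertion mutants lbd37 (the allele lbd37-1 in the design text) and lbd38 and a further wild type had 9 days of full nutrition with 4 mM KNO3. The labels describe liquid culture throughout and also agar plates before single seedlings moved to liquid wells, and this was not settled. The labels do not state the promoter behind the overexpression, the number of transgenic lines, or what the biological replicates repeated, so the p-values reflect the spread among these samples and no wider one. The overexpressers were profiled only without nitrogen and the mutants only with it. Levels of the LBD37 and LBD38 transcripts themselves are not reported here.

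Plants that run short of nitrogen switch on high-affinity uptake, release nitrogen from stored amides and old proteins, and divert carbon that cannot be built into amino acids towards starch and anthocyanin pigments. Small CC-type glutaredoxins made in the shoot carry word of nitrogen demand to the root. LBD37 and LBD38 belong to the LATERAL ORGAN BOUNDARY DOMAIN family of plant transcription factors, whose members bind DNA and tune development and metabolism.

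The array medians over all probe sets lay between 6.87 and 7.06 on the log2 scale. The narrowest spread was that of LBD37 overexpresser replicate 3, where the quartiles were 2.89 apart; elsewhere they were 3.06 to 3.28 apart. Both root and leaf markers read above the array medians: the mean over 4 measured root markers (of 8 listed) was 8.79 to 9.59 across arrays, and that over 7 measured leaf and stomatal markers (of 8 listed) was 8.64 to 9.55. The leaf markers averaged 9.07 ± 0.11 in LBD37 overexpressers and 9.18 ± 0.04 in LBD38 overexpressers, against 8.76 ± 0.12 in depleted wild type and 9.40 ± 0.03 in replete wild type (log2, SD over 3 arrays each). The root markers averaged 8.98 ± 0.17 and 9.13 ± 0.13 in the LBD37 and LBD38 overexpressers, against 9.32 ± 0.28 in depleted wild type and 9.09 ± 0.07 in replete wild type. Single markers did not move together. Under depletion the root marker PYK10 changed by −1.27, and AT4G26010, EXPA7 and EXPA18 by 0.94, 0.51 and 0.74. The leaf and stomatal marker SPCH changed by −1.41 and FMA by 0.24, where the median of the 7 was −0.81. From depleted wild type SPCH changed by 1.35 and 1.46 in the LBD37 and LBD38 overexpressers, against medians of 0.23 and 0.32. Signal of a 25S ribosomal RNA control was 10.88 ± 0.42 in LBD37 overexpressers and 9.76 ± 0.38 in LBD38 overexpressers, against 9.19 ± 0.77 in depleted wild type. The part of these differences in the members' levels was not tested. In whole seedlings, fewer cells of a type and less RNA per cell cannot be told apart.

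Of all probe sets, 5.12% were at least 1 higher in depleted than in replete wild type, 1.44% at least 1 lower in LBD37 overexpressers than in depleted wild type and 1.49% at least 1 lower in LBD38 overexpressers. The 3 conditions together took 0.866%. Of the 1165 probe sets this much higher under depletion, 16.9% were members, and of the 250 that were lower by at least 1 in both overexpressers, 78.8% were members. These comparisons share the depleted wild-type arrays. Members were more frequent among the strongest inductions: they made up 28 of the 49 probe sets higher by at least 3 (57.1%), 68 of the 173 higher by 2 to 3 (39.3%) and 101 of the 943 higher by 1 to 2 (10.7%). The rule asks for the same loss whatever the induction, and the gradient follows in part from it. The smallest margin inside the rule belonged to AT1G26290 (depletion change 1.0003), AT5MAT (LBD38 overexpresser change −1.002) and 247554_at (LBD37 overexpresser change −1.0027). Just outside lay 246197_at, with −0.9997 in the LBD38 overexpresser, and 253036_at and 265658_at, with −0.9968 and −0.994 in the LBD37 overexpresser.

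**Figure D1:**
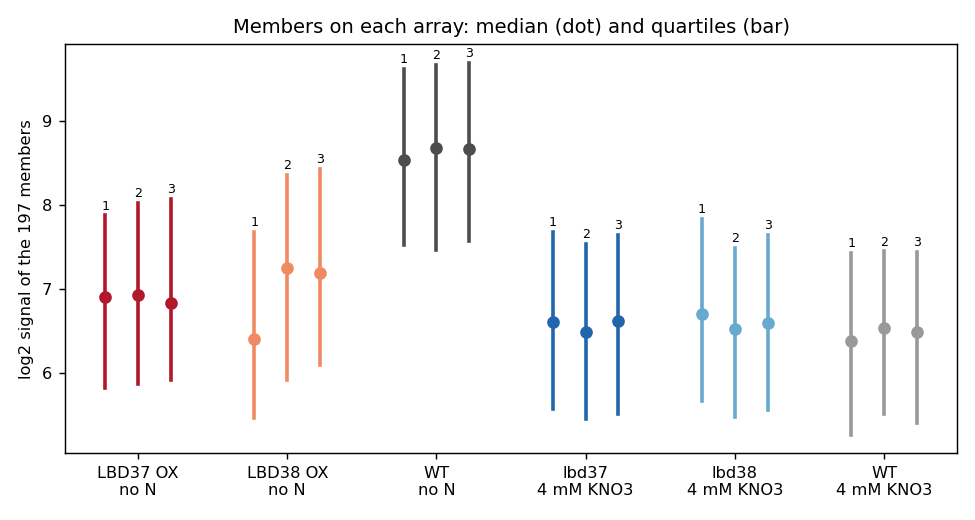
Median (dot) and quartiles (bar) of the log2 signal of the 197 members on each of the 18 arrays, with replicate numbers above the bars. The depleted wild-type medians (8.53 to 8.68) stand above every other array, and replicate 1 of the LBD38 overexpresser (6.41) lies among the nitrogen-replete arrays.

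The median member read 6.90, 6.93 and 6.84 in the 3 LBD37 overexpressers and 6.41, 7.26 and 7.20 in the 3 LBD38 overexpressers, against 8.53, 8.68 and 8.67 in depleted and 6.38, 6.54 and 6.49 in replete wild type. Of the 6 overexpresser medians, 5 lay between the depleted and the replete ones, and LBD38 replicate 1 fell among the replete ones. The depletion change of the members had a median of 1.98 and a maximum of 5.10. The change in the overexpressers had a median of −1.45 and an extreme of −4.54 for LBD37, and a median of −1.43 and an extreme of −3.74 for LBD38. Over all probe sets the medians of the same 3 differences were −0.07, 0.01 and 0.01.

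How much of the depletion change was missing in an overexpresser was expressed as a percentage of that log2 change, so that 100% means the replete wild-type level. All such percentages below are shares of the log2 change and not of the signal, also where a fold induction stands beside them. The LBD37 overexpresser lacked a median of 77.2% (27.8% to 218%) and the LBD38 overexpresser 75.8% (25.7% to 214%). The rule sets a floor under these shares, since a loss of at least 1 is a larger percentage of a smaller induction. A member with a depletion change near 1 must lack about 100% of it. The medians and the counts below therefore follow in part from the rule. In the LBD37 overexpresser 50 members were at or below the replete wild-type mean, and 50 others still stood at least 1 above it. In the LBD38 overexpresser the counts were 44 and 46, and 37 members were at or below that mean in both lines. The arrays of the LBD37 overexpresser lay wholly above those of replete wild type at 101 members, wholly below at 25 and overlapped at 71. For LBD38 the counts were 81, 7 and 109.

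**Figure D2:**
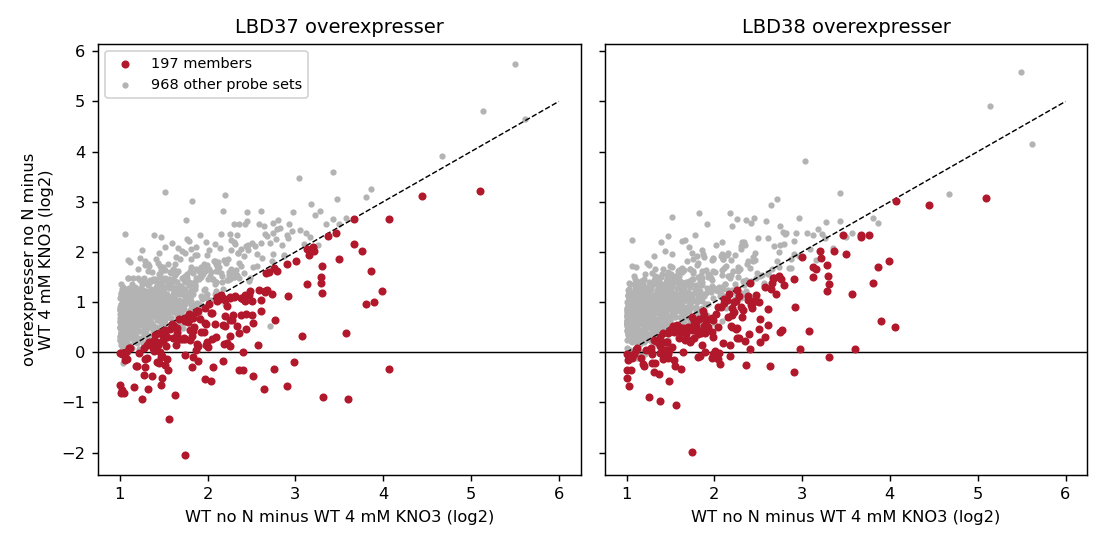
Each point is a probe set at least 1 higher under depletion: its depletion change in wild type (horizontal axis, log2) and the level of the overexpresser without nitrogen relative to replete wild type (vertical axis, log2). Members (197) lie on or below the dashed line set by the rule, and 50 of them in the LBD37 overexpresser and 44 in the LBD38 overexpresser reach or cross the horizontal line at 0, the replete level.

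Replicate 1 of the LBD38 overexpresser carried the lowest value of its group at 181 of the 197 members (91.9%, against 34.9% of all probe sets), replicate 2 at 14 and replicate 3 at 2. Taken alone, this array lacked a median of 96.8% of the depletion change, against 69.1% and 62.1% on replicates 2 and 3. Without it the LBD38 median was 65.9%, 22 members were at or below the replete mean in place of 44, and the rule took 160 probe sets, 158 of them members. The typical member varied more between replicates of this line than elsewhere: the median SD over members was 0.38 in LBD38 overexpressers and 0.20 in LBD37 overexpressers, against 0.16 in depleted and 0.18 in replete wild type. Over all probe sets those median SDs were 0.09, 0.15, 0.09 and 0.11. In the LBD37 overexpresser the lowest value lay on replicates 1, 2 and 3 at 74, 60 and 63 members. These are 37.6%, 30.5% and 32.0% of members, against 19.9%, 27.8% and 52.3% of all probe sets. Replicate 3 of this line had the highest value at 45.2% of members, against 29.5% of all probe sets. Without LBD37 replicate 3, the array of narrow spread, the LBD37 median was 80%.

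The members with known roles were grouped after their values had been seen. Genes of nitrogen transport and use come first. NRT2.5 (AT1G12940) encodes a nitrate transporter of high affinity that serves severely starved plants. It read 6.95, 6.77 and 7.59 in LBD37 overexpressers and 6.25, 6.80 and 7.16 in LBD38 overexpressers, against 9.99, 9.92 and 10.10 in depleted and 6.19, 5.98 and 6.15 in replete wild type. Every overexpresser array was thus far below every depleted wild-type array and above every replete one. Depletion made it 14.9-fold higher, and it was 7.47-fold lower in LBD37 and 9.61-fold lower in LBD38 overexpressers than in depleted wild type. ASPGB1 (AT3G16150), an asparaginase that frees ammonium from stored asparagine, had 7.66, 7.45 and 7.36 in LBD37 overexpressers and 7.66, 7.96 and 8.66 in LBD38 overexpressers, against 9.27, 9.61 and 9.69 in depleted and 7.43, 7.39 and 7.09 in replete wild type. It was 4.67-fold higher under depletion, and the LBD37 line lacked 91.4% of that log2 change and the LBD38 line 64.3%. Counted with them was the glutamate receptor-like channel gene GLR1.2 (AT5G48400), whose part in nitrogen transport or use was not tested here. It was 5.11-fold higher under depletion, with 83.7% and 90.2% of the change missing. Of 23 transporter genes fixed as a list only NRT2.5 and AT2G26690 were read by a probe set with 1 listed gene, and AT2G26690 went the other way under depletion (−1.01). Of 19 genes in a list for nitrate reduction and ammonium assimilation, only the dikinase gene PPDK (AT4G15530) was measured. Its enzyme carries out neither step, so no gene of those steps themselves was read from the list. PPDK missed the rule narrowly: its changes were 1.65 under depletion, −0.90 with LBD37 and −1.01 with LBD38.

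CC-type glutaredoxins are a plant-specific class of small redox proteins. AT2G47880 and AT3G62960 (known as CEPD2 and CEPDL2) are among the shoot-derived signals of nitrogen demand mentioned above. AT2G47880 read 7.69, 7.24 and 7.57 in LBD37 overexpressers and 7.79, 7.62 and 9.28 in LBD38 overexpressers, against 10.63, 10.61 and 10.49 in depleted and 7.75, 7.99 and 7.74 in replete wild type. AT3G62960 read 7.84, 7.78 and 7.62 in LBD37 overexpressers and 8.01, 7.92 and 9.35 in LBD38 overexpressers, against 11.00, 10.60 and 10.60 in depleted and 7.99, 8.47 and 8.19 in replete wild type. Both were thus within or below the replete range on 5 of 6 overexpresser arrays, the exception being replicate 3 of the LBD38 line, and all LBD37 arrays lay below every replete wild-type array. Their inductions of 6.74- and 5.73-fold were missing by 112% and 119% with LBD37 and by 85.3% and 91.8% with LBD38. AT4G33040, a further member of this class, was 11.3-fold higher under depletion and kept over 1 log2 unit of it: 46.7% and 44.0% of the change was missing. Of 17 measured genes of the 21 in the class, 5 were at least 2-fold higher under depletion. The other 2 besides the 3 members, AT5G11930 (changes of 2.87, −0.96 and −1.02) and GRX480 (1.82, −0.95 and −1.16), missed the rule only in the LBD37 line. A separate 5 were at least 2-fold lower under depletion and reached 2-fold in neither overexpresser, with AT5G18600 at −3.17 under depletion and at −0.67 and −0.62 in the overexpressers. The class did not move as 1: AT1G06830 changed by 0.80 under depletion and by 0.25 and 0.43 in the LBD37 and LBD38 overexpressers. AT2G30540 changed by −0.42, −0.66 and −0.39.

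Carbon storage and sugar movement had 4 members. APL3 (AT4G39210), a large subunit of the ADP-glucose pyrophosphorylase that commits carbon to starch, read 6.65, 6.40 and 5.92 in LBD37 overexpressers and 5.57, 6.71 and 7.00 in LBD38 overexpressers, against 9.10, 9.12 and 9.00 in depleted and 6.20, 5.79 and 6.01 in replete wild type. Both lines overlapped the replete arrays, lacking 89.5% and 86.2% of an 8.42-fold induction. SWEET13 (AT5G50800), a sucrose exporter, read 7.33, 7.14 and 7.01 in LBD37 overexpressers and 6.88, 7.62 and 7.95 in LBD38 overexpressers, against 9.46, 9.27 and 9.08 in depleted and 6.05, 6.12 and 5.75 in replete wild type. It stayed above replete wild type on every overexpresser array. The fructan exohydrolase gene cwINV6 (AT5G11920) was 5.97-fold higher under depletion with 94.4% and 88.5% missing, and AT4G04750, a sugar transporter-like gene, was 2.24-fold higher with 160% and 110% missing. Of 22 starch and sugar genes listed 4 were measured, and the other 3 (SBE2.2, SWEET11 and APL4) changed by −0.29 to 0.68 under depletion and by −0.08 to 0.22 in the overexpressers.

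Anthocyanin decoration was represented by 3 enzymes that attach sugars or acids to the pigment. AT4G14090, a glucosyltransferase, read 8.98, 8.96 and 8.18 in LBD37 overexpressers and 8.79, 9.10 and 9.32 in LBD38 overexpressers, against 10.59, 10.77 and 10.83 in depleted and 8.79, 8.58 and 8.25 in replete wild type. The glycosyltransferase gene UF3GT (AT5G54060) was 4.5-fold higher under depletion. It kept about as much of the log2 change as it lost, with 50.3% and 46.4% missing. The malonyltransferase gene AT5MAT (AT3G29590), 2.88-fold higher, lacked 91.4% and 65.7% of its log2 change. DFR (AT5G42800), the reductase that supplies all of them, was left out by 0.03: its changes were 2.20, −1.24 and −0.97. Of 21 anthocyanin genes listed 5 were measured, and the fifth, UGT78D2, changed by 0.86, −0.39 and −0.13. Neither measured gene of early flavonoid synthesis, of 9 listed, was a member.

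AT1G22160, an FCS-like zinc finger protein, read 5.33, 5.40 and 4.92 in LBD37 overexpressers and 5.52, 5.44 and 7.06 in LBD38 overexpressers, against 9.57, 9.60 and 9.07 in depleted and 6.16, 5.86 and 6.29 in replete wild type. All LBD37 arrays and LBD38 replicates 1 and 2 lay below every replete wild-type array. It was 18.3-fold lower with LBD37 and 10.6-fold lower with LBD38 than in depleted wild type, more than its 9.91-fold induction. AT4G17670 of the same family lacked 99.6% and 85.2% of a 5.28-fold induction. FCS-like zinc fingers act as adaptors of the SnRK1 kinase, an energy sensor.

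Haloacid dehalogenase-type hydrolases, which cleave phosphate from small molecules, had 3 members. AT5G02230 read 6.26, 6.15 and 6.09 in LBD37 overexpressers and 6.21, 6.59 and 7.09 in LBD38 overexpressers, against 9.52, 9.47 and 9.64 in depleted and 6.80, 6.96 and 6.94 in replete wild type. It too fell short of the replete level on all but 1 overexpresser array. AT5G59490 and AT2G32150 kept a part, with 66.6% to 81.9% missing. Sulfur transfer had the sulfurtransferase STR18 (AT5G66170; 144% and 108% missing) and SUFE2 (AT1G67810), which supplies sulfur for iron-sulfur clusters (85.2% and 91.1%). AILP1 (AT5G19140), an aluminium-induced protein of abundant signal, read 9.87, 9.96 and 9.65 in LBD37 overexpressers and 9.50, 9.62 and 10.51 in LBD38 overexpressers, against 11.90 to 12.13 in depleted and 10.56, 10.70 and 11.02 in replete wild type. All 6 overexpresser arrays were below all 3 replete wild-type arrays, with 175% and 171% of the depletion change missing. The extreme was the unnamed 266385_at, at 218% and 214%.

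At the other end stood members that kept most of their induction on the log2 scale, which the rule allows only where the induction is large. AT4G32950, a protein phosphatase of the 2C class, read 9.86, 9.65 and 9.60 in LBD37 overexpressers and 10.01, 9.78 and 10.41 in LBD38 overexpressers, against 11.44, 11.05 and 10.84 in depleted and 7.19, 6.98 and 6.97 in replete wild type. The 16.8-fold induction lost 34.6% and 25.7% of its log2 change. In signal, it was 2.65-fold lower with LBD37 and 2.06-fold lower with LBD38 than in depleted wild type. AT5G52740, a metal transport-like protein, lost 31.7% and 32.3%, AT3G48640 27.8% and 37.3%, and the unnamed 250100_at 30% and 34%. All 3 AAA-type ATPase genes, AT3G28510, AT3G28540 and AT3G28580, were of this kind or intermediate (36.8% to 78.4%). AT3G28510, the most strongly induced member (34.2-fold), read 7.18, 8.11 and 8.09 in LBD37 overexpressers and 6.08, 8.38 and 8.46 in LBD38 overexpressers, against 9.64, 9.55 and 9.82 in depleted and 4.35, 4.27 and 5.09 in replete wild type. Its replete values lie under 5.29, the lower quartile of all replete means, so that its fold is rough, as it is for 47 members in all (23.9%).

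**Figure D3:**
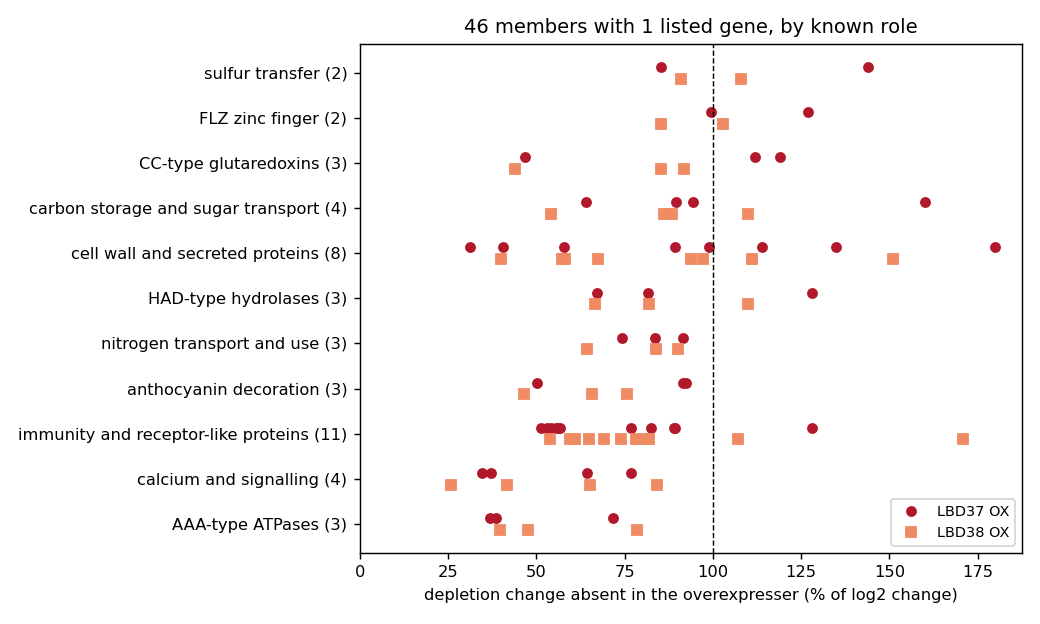
The part of the depletion change missing in each overexpresser (horizontal axis, % of the log2 change in wild type; dashed line, replete wild-type level) for the 46 members with 1 listed gene and a known role, 1 circle (LBD37) and 1 square (LBD38) each, with the number of members in brackets. AAA-type ATPase and calcium and signalling genes reach at most 84.2%, while at least 1 gene of the glutaredoxin, zinc finger, sulfur transfer, hydrolase, sugar, cell wall and immune classes passes 100%. The rule sets a floor under each percentage, which is higher for smaller inductions.

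Strongly changed members without a class included AT1G64360, which read 6.62, 7.23 and 6.32 in LBD37 overexpressers and 6.81, 7.00 and 7.58 in LBD38 overexpressers, against 10.04, 9.53 and 9.11 in depleted and 5.35, 5.93 and 5.98 in replete wild type. AT5G02580 read 5.03, 5.10 and 5.23 in LBD37 overexpressers and 5.11, 5.06 and 6.04 in LBD38 overexpressers, against 8.97, 8.76 and 8.35 in depleted and 5.36, 5.97 and 6.04 in replete wild type. AT1G64360 remained above every replete array, and AT5G02580 lay below them all except on LBD38 replicate 3. The unnamed 259953_at read 5.88, 5.32 and 5.92 in LBD37 overexpressers and 5.78, 5.87 and 7.97 in LBD38 overexpressers, against 10.37, 10.03 and 9.90 in depleted and 6.08, 5.99 and 6.05 in replete wild type. The unnamed 260140_at, with the largest loss in the LBD37 line, read 6.38, 6.55 and 6.20 in LBD37 overexpressers and 6.36, 6.97 and 8.82 in LBD38 overexpressers, against 11.06, 10.97 and 10.73 in depleted wild type. Here too LBD38 replicate 3 was the high array, at transcripts that were otherwise at or under the replete level. In all, 43 members with 1 listed gene were not given a class.

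Immune and receptor-like genes were the largest class, with 11 members. They include AT3G48080, a close copy of the immune regulator EDS1, the TIR-domain genes AT3G04210, AT2G32140 and AT5G45000, the receptor kinases AT1G35710, AT5G59670 and AT1G66880, the chitinase genes CHI (AT2G43570) and AT3G47540, AT1G10340 with ankyrin repeats, and AT4G33720 of the PR-1 type. Their depletion changes were 1.31 to 2.52, with a median of 56.7% missing in the LBD37 and 74.1% in the LBD38 overexpresser. AT5G59670 had 3.96, 3.90 and 4.58 in LBD37 overexpressers and 3.97, 4.92 and 4.82 in LBD38 overexpressers, against 6.67, 6.80 and 6.76 in depleted wild type and a replete mean of 4.71 ± 0.26 (SD, n = 3). AT4G33720 differed most between the lines among members with 1 gene, at 7.22, 6.32 and 5.60 with LBD37 and 4.60, 5.26 and 5.89 with LBD38, against 7.97, 7.59 and 7.26 in depleted wild type. Its LBD37 and LBD38 arrays overlapped, and so did the LBD37 arrays with replete wild type (7.03, 6.04 and 5.62). Secreted and cell wall proteins had 8 members. Of these the germin-like gene AT5G38910 read 6.13, 6.20 and 6.31 in LBD37 overexpressers and 5.90, 5.93 and 9.15 in LBD38 overexpressers, against 9.74, 9.61 and 8.88 in depleted wild type. It was the only member with an overexpresser array inside the depleted wild-type range, and none of the other 5 measured germin-like genes of 21 listed was a member.

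Of 21 senescence and autophagy genes listed 12 were measured, 7 of them at least 2-fold higher under depletion, and none of the 12 was a member (16.9% of all depletion-induced probe sets were). The ubiquitin-like autophagy gene ATG8B changed by 2.13 under depletion and by −0.43 and −0.40 in the LBD37 and LBD38 overexpressers. Only ATG8E reached 2-fold lower in an overexpresser (−1.35 with LBD37 and −0.71 with LBD38), on a depletion change of 0.60. Among nitrate-responsive regulators 3 of 16 listed were measured, and AT3G25790 of the GARP family came nearest, at 0.87, −1.0046 and −0.90. The others went the other way under depletion: AT1G25550 changed by −1.30, −0.76 and −0.71, and AT1G68670 by −1.25, −0.83 and −0.57. None of the measured root or leaf markers was a member.

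The overexpressers were compared with each other at these transcripts. Their difference (LBD37 minus LBD38) had a median of −0.05 over the members and −0.02 over all probe sets, and it reached 1 at only 2 members: AT4G33720 (1.13) and 260140_at (−1.0035). The LBD37 arrays lay wholly below the LBD38 arrays at 3 members, AT1G22160, AT3G62960 and AT4G04750 (differences of −0.79, −0.68 and −0.58), and wholly above at none. Over all probe sets these shares were 7.66% and 7.1%, and the rule used all of these arrays.

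**Figure D4:**
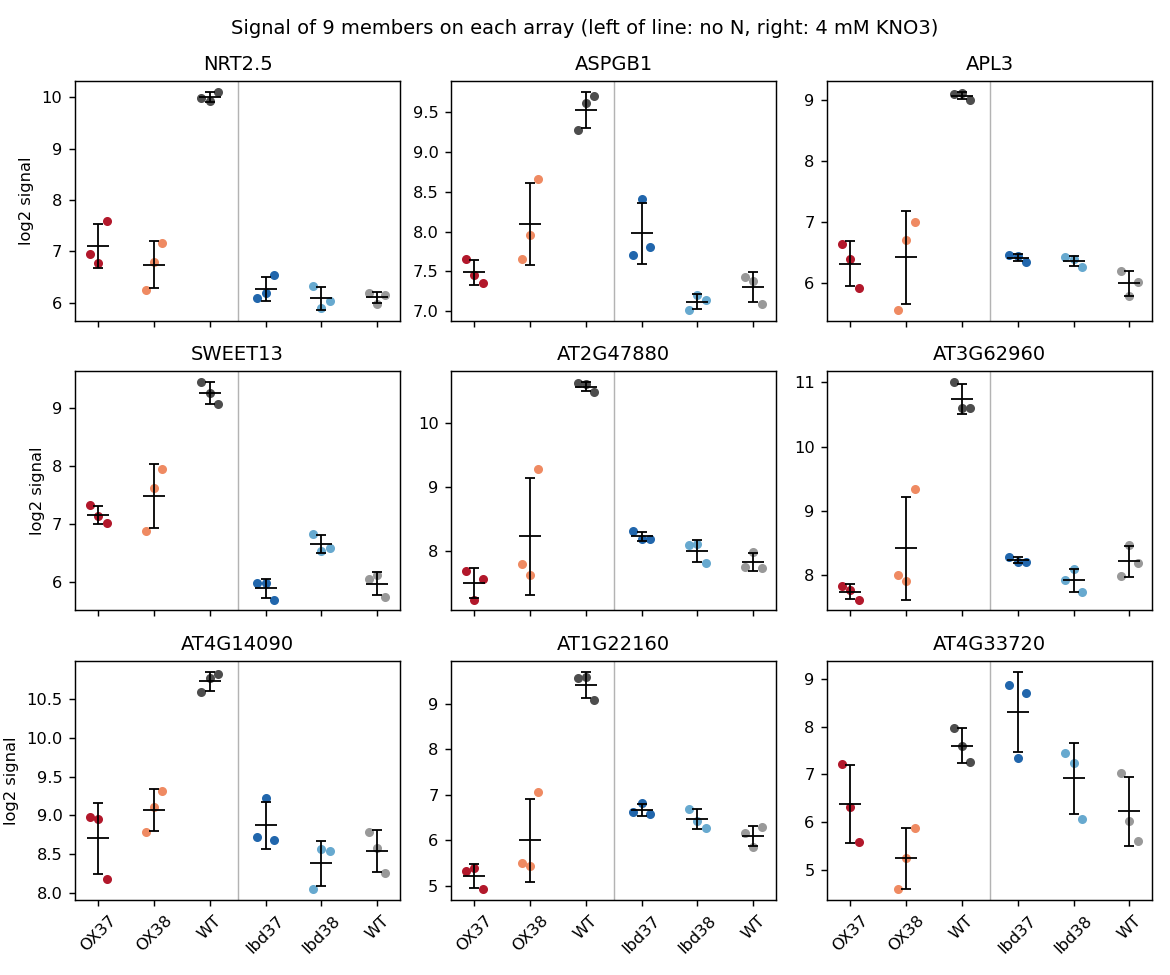
Log2 signal on each array (dots) with mean and SD (bars, 3 arrays) for 9 members, without nitrogen left of the line (LBD37 overexpresser, LBD38 overexpresser, wild type) and with 4 mM KNO3 right of it (lbd37, lbd38, wild type). Depleted wild type is highest in all but AT4G33720, where lbd37 with nitrogen averages 8.31 against 7.60 in depleted wild type, and replicate 3 of the LBD38 overexpresser is high for AT2G47880 (9.28), AT3G62960 (9.35) and AT1G22160 (7.06).

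Loss of either factor was examined next, in seedlings with full nitrogen, where the members are low in wild type. Few members changed. In lbd37, 1 of the 197 was higher than in replete wild type and 0 lower (limma, Benjamini-Hochberg over 22746 probe sets, threshold 0.05), where 0.136% of all probe sets were higher and 0.0528% lower. At an unadjusted p under 0.05 (limma) the counts were 27 higher and 5 lower, or 13.7% and 2.54% of members, against 3.15% and 4.27% of all probe sets. In lbd38, 7 were higher and 0 lower, with 0.589% and 0.598% of all probe sets called. Unadjusted, 50 were higher and 1 lower (25.4% and 0.508%, against 4.31% and 7.38%). The shares past the adjusted threshold were not above those of the 968 other depletion-induced probe sets, of which 1.14% were higher in lbd37 and 4.55% in lbd38. Unadjusted, 15.4% of those others were higher and 4.65% lower in lbd37, and 24.1% and 7.64% in lbd38. The fit shares its estimate of spread over all 6 groups, the LBD38 overexpressers included. There the median SD over members was 0.38, against 0.15 in lbd37, 0.17 in lbd38 and 0.18 in replete wild type. In a fit to only the groups compared, 3 members were higher in lbd37 and 20 in lbd38. The shares of the other probe sets in that fit are not given here.

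As a group the members sat slightly above replete wild type in both mutants. The median change was 0.13 (quartiles 0.00 and 0.31) in lbd37 and 0.21 (0.05 and 0.43) in lbd38, against −0.02 and −0.04 over all probe sets and 0.05 and 0.12 over the other depletion-induced ones. The mean was above wild type at 75.6% of members in lbd37 and 79.2% in lbd38, where 41.5% and 37.2% of all probe sets were. Of the other depletion-induced probe sets, 59.7% and 70.8% were. Every array of lbd37 lay above every wild-type array at 38 members (19.3%, against 5.64% of all probe sets) and below at 4 (2.03%, against 8.31%). For lbd38 the counts were 63 (32.0%, against 6.32%) and 9 (4.57%, against 12.2%). The other depletion-induced probe sets had shares of 16.7% above in lbd37 and 28.0% above in lbd38. Both mutants are set against the same wild-type arrays that the rule used to pick low transcripts. Members chosen with 2 of these arrays and compared with the one left out gave medians of 0.10 to 0.16 for lbd37 and 0.17 to 0.21 for lbd38, with −0.04 to 0.01 and −0.06 to 0.00 over all probe sets. Root markers averaged 8.94 ± 0.06 in lbd37 and 9.28 ± 0.13 in lbd38, against 9.09 ± 0.07 in wild type, and leaf markers 9.45 ± 0.09 and 9.33 ± 0.04, against 9.40 ± 0.03 (SD, n = 3 each). The 25S ribosomal RNA control read 8.24 ± 0.34 in lbd37 and 8.09 ± 0.26 in lbd38, against 8.64 ± 0.24 in wild type, and all lbd38 arrays (7.79 to 8.29) lay below all wild-type arrays (8.42 to 8.89). No measured marker passed limma's adjusted threshold in either mutant, and the part of these differences in the shifts was not tested. These shifts are small beside the depletion change: the median depletion change of the members was 1.98.

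**Figure D5:**
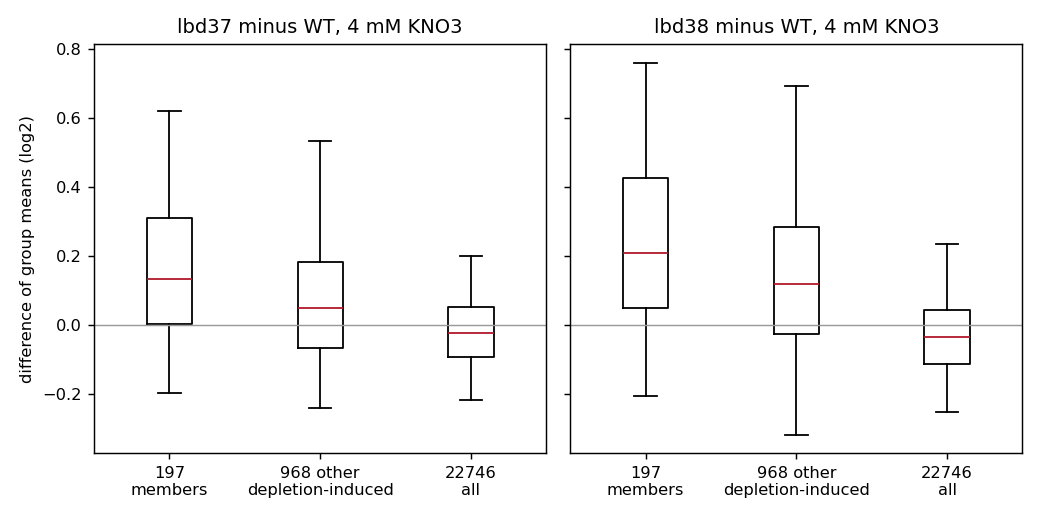
Difference of group means between each mutant and wild type with 4 mM KNO3 (log2) for the 197 members, the 968 other depletion-induced probe sets and all 22746. Boxes show quartiles and median, whiskers the 5th and 95th percentiles, and the member medians are 0.13 (lbd37) and 0.21 (lbd38).

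The member that rose in lbd37 was AT1G70270, of unstated function, at 5.80, 5.94 and 5.81 in lbd37 against 5.23, 5.27 and 5.09 in wild type (0.65 ± 0.12, estimate ± SE, limma adjusted p = 0.0303). Its arrays did not overlap, but it did not pass without any 1 of the 6 arrays. In lbd38 it read 5.26, 5.36 and 5.31 (0.11). The largest change in lbd37 was that of AT4G33720, at 8.88, 7.34 and 8.70 in lbd37 against 7.03, 6.04 and 5.62 in wild type. Its difference of 2.08 ± 0.47 was the highest of all 22746 probe sets, and with the spread between replicates it did not pass (limma adjusted p = 0.111).

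Of the 7 members that rose in lbd38, 4 have a listed gene. AT1G78410, a VQ-motif protein of the kind that partners WRKY factors, read 5.73, 5.28 and 5.76 in lbd38 against 4.69, 4.74 and 4.62 in wild type (0.91 ± 0.18, limma adjusted p = 0.0158). AT5G39670, an EF-hand calcium-binding protein, read 7.95, 7.43 and 7.99 against 6.50, 7.14 and 7.02 (0.90 ± 0.21, limma adjusted p = 0.0392). In lbd37 these genes were at 0.79 and 0.70, and neither passed. AT3G04210, a TIR-domain protein, read 8.45, 8.24 and 8.30 in lbd38 against 7.52, 7.39 and 7.95 in wild type (0.71 ± 0.16, limma adjusted p = 0.0281). The hydrolase gene AT5G59490 read 5.88, 5.61 and 5.70 against 4.93, 5.08 and 5.28 (0.63 ± 0.15, limma adjusted p = 0.0453). All arrays of lbd38 were above all wild-type arrays at these 4 genes. The unnamed ones were 253416_at (9.35, 8.99 and 9.26 in lbd38 against 7.63, 8.33 and 8.38 in wild type, 1.08 ± 0.17, limma adjusted p = 0.00244), 266184_s_at (0.80) and 247071_at (0.58). The count fell to 1 without lbd38 replicate 1 or 3 or wild-type replicate 1, and to 3 without wild-type replicate 2. Only 253416_at passed under each of the 14 alternative settings run for it.

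In the immune and receptor-like class, drawn up after values were seen, only AT3G04210 in lbd38 passed. The mean was above wild type at 10 of its 11 genes in lbd37 and 11 of 11 in lbd38, where 75.6% and 79.2% of all members were, and AT5G59670 was at 0.67 and 0.85. No member of the nitrogen, sugar or glutaredoxin classes passed against wild type. The nearest were SWEET13 in lbd38, at 0.68 with all arrays above wild type (limma adjusted p = 0.106), and ASPGB1 in lbd37, also at 0.68 with all arrays above (limma adjusted p = 0.334). NRT2.5 was at 0.17 and −0.02 in lbd37 and lbd38, APL3 at 0.42 and 0.36, AT2G47880 at 0.41 and 0.18 and AT3G62960 at 0.02 and −0.29. APL3 arrays of both mutants lay above all wild-type arrays, at 6.47, 6.44 and 6.35 in lbd37 and 6.43, 6.40 and 6.27 in lbd38, against 6.20, 5.79 and 6.01. The anthocyanin genes AT4G14090, UF3GT and AT5MAT were at 0.33, 0.31 and 0.27 in lbd37 and at −0.16, 0.11 and −0.01 in lbd38, with overlapping arrays. Of the listed genes outside the members, AT3G25790 rose in lbd38 (0.69) and the glutaredoxins AT4G15680 and AT4G15700 fell there by 1.12 and 0.73.

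The mutants were also set against each other, a comparison in which no array had served the rule. Of the members 6 were higher and 6 lower in lbd37 than in lbd38, or 3.05% each, where 1.5% and 1.1% of all probe sets were called (limma). Unadjusted, 14 were higher and 26 lower (7.11% and 13.2%, against 7.1% and 5.64%). The lbd37 arrays lay wholly above those of lbd38 at 19 members and wholly below at 45 (9.64% and 22.8%, against 13.9% and 10.4%), and the mean was higher in lbd37 at 37.6% of members, against 54.9% of all probe sets. Of the 968 other depletion-induced probe sets, 4.13% were called higher and 4.24% lower (limma), and unadjusted 10.5% and 18.9% were. Their lbd37 arrays lay wholly above those of lbd38 at 14.3% and wholly below at 25.1%, and their mean was higher in lbd37 at 40.2%. In this fit over all 6 groups, the members' shares of calls were thus not above those of these others. ASPGB1 read 7.71, 8.41 and 7.81 in lbd37 against 7.02, 7.20 and 7.14 in lbd38 (0.86, limma adjusted p = 0.0314), with wild type at 7.43, 7.39 and 7.09. SWEET13 went the other way, at 5.99, 5.99 and 5.70 in lbd37 against 6.83, 6.53 and 6.60 in lbd38 (−0.76, limma adjusted p = 0.0409), where only lbd38 stood apart from wild type at 6.05, 6.12 and 5.75. SWEET13 did not pass with any 1 of the 6 mutant arrays left out. AT1G29020, an EF-hand calcium-binding protein, was lower in lbd37 than in lbd38 (6.38, 6.58 and 6.62 against 7.23, 7.12 and 7.20, limma adjusted p = 0.0136), with wild type between them at 6.85, 6.81 and 7.03. AT1G70270, AT2G29670 and AT2G41730 were higher in lbd37 by 0.54, 0.44 and 0.74, the last on a probe set whose suffix marks shared probes, as do those of 15 members. The median over members was −0.09, against 0.01 over all probe sets. Leaving out any 1 of the 6 arrays left 1 (lbd38 replicate 3) to 4 (lbd37 replicate 3) higher and 1 (lbd37 replicate 1) to 4 (lbd38 replicate 2) lower. The median was −0.0165 without lbd37 replicate 2 and −0.0315 without lbd38 replicate 1.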

How the data were processed

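The authors deposited log2 values summarised with RMA, a method that corrects background, normalizes by quantiles and merges the probes of a set (named in the submitters' processing notes, without a version). All 18 columns were matched to samples, and 64 control probe sets of 22810 were left out of the tests. Gene names came from the platform's probe table and locus tags of TAIR10.1. The members and gene lists were chosen with earlier results of these data known, and the roles were grouped after values were seen. Lists for phosphate starvation and salicylate had no measured gene.

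Group means gave the members. Mutants were compared with limma 3.58.1 in R 4.3.3 (lmFit and eBayes, 6 group means, 12 residual degrees of freedom, two-sided, Benjamini-Hochberg over 22746 probe sets). The procedure was tested on simulated data. Precision is limited by 3 arrays per group.

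Named genes were listed members, the 12 most induced and 12 most lowered with 1 gene, members called in the mutants, the extremes and the margins of the rule, and up to 6 unnamed probe sets. Others named here were chosen after their values were seen. Family naming by product text was not used, since the tables hold none, and promoter motifs were not analysed here.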

Additional observations from a re-analysis of the deposited data

Results flagged for a closer look

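At 12 members the mutants' effects differed by a direct test (lbd37 minus lbd38 under full nitrogen, limma adjusted p from 0.000929 to 0.0491). Of these, 6 were higher in lbd37: ASPGB1 (AT3G16150) by 0.86, 257624_at by 0.79, AT2G41730 by 0.74, 248037_at by 0.69, AT1G70270 by 0.54 and AT2G29670 by 0.44 (log2). The other 6 were lower in lbd37, with differences of −1.14 at 253416_at, −0.96 at 249752_at, −0.80 at 245265_at, −0.76 at SWEET13 (AT5G50800), −0.65 at AT1G29020 and −0.64 at 266184_s_at. Each direction holds 3.05% of members, against 4.13% higher and 4.24% lower among the other depletion-induced probe sets. The calls at members differ in how well they held under the 13 to 15 alternatives run for each. Those at 253416_at and 248037_at passed in 14 of 14, 249752_at in 13 of 14, AT1G29020 in 11 of 15, AT1G70270 in 10 of 14, ASPGB1 in 9 of 15, AT2G29670 in 8 of 15 and 266184_s_at in 8 of 14. Fewer held at the rest, with 257624_at in 7 of 13, SWEET13 in 7 of 15, AT2G41730 in 5 of 15 and 245265_at in 3 of 14. The last also lost its call after centring or repeated quantile normalization and with any 1 of the 6 arrays left out. At 248037_at the arrays read 8.72, 8.69 and 8.68 in lbd37 and 8.09, 8.01 and 7.92 in lbd38, on either side of wild type (8.45, 8.32 and 8.43). At 249752_at they read 6.48, 6.86 and 6.69 in lbd37 and 7.75, 7.52 and 7.65 in lbd38, with wild type at 7.18, 6.85 and 6.73.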

How the results depend on the processing

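The rule took 180 probe sets after quantile normalization was repeated (179 shared), 192 after centring each array (186 shared), 189 with group medians (170 shared), 89 among probe sets with 1 listed gene, 118 at a threshold of 1.2, 322 at 0.8 and 160 to 211 with 1 array left out, and 133 members were kept under each of those 12 left-out arrays. For lbd37 against wild type, the members higher were 0 without the dimmest 40% of probe sets or at an adjusted p under 0.01, 3 with only the groups compared or array weights, and 0 with any 1 array left out. For lbd38 they were 20 with only the groups compared, 3 among probe sets with 1 gene, 1 at an adjusted p under 0.01 and 1 to 7 with 1 array left out. Between the mutants, the members higher in lbd37 were 10 with array weights, 3 among probe sets with 1 gene, 1 at an adjusted p under 0.01 and 1 to 4 with 1 array left out. The lower ones were 20, 15, 2 and 2 (only the groups compared, array weights, 1 gene, adjusted p under 0.01) and 1 to 4. These are counts of members only, without the shares of all probe sets called under the same settings. They cannot tell a change at the members from a change over all probe sets. The cause was not tested. The member median stayed between 0.10 and 0.16 in lbd37 and between 0.15 and 0.25 in lbd38 and ran from −0.12 to −0.0165 between them over the alternatives. Whether replicate numbers pair the arrays was not settled. Same-numbered deviations correlated at −0.06 to 0.02 (lbd37 and wild type), 0.03 to 0.26 (lbd38 and wild type) and 0.01 to 0.18 (the mutants). Differently numbered ones correlated at −0.0935 to 0.107, −0.204 to 0.131 and −0.115 to 0.0785 in the same order. With the replicate block 1, 6 and 6 members were higher and 0, 0 and 5 lower in these comparisons. Of the members called, 253416_at and 248037_at passed under all alternatives run between the mutants.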

Other observations

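Some members lie close together in TAIR10.1 gene order, and no background was computed for this. AT2G32140, AT2G32150, AT2G32160 and AT2G32190, which hold a TIR-domain gene, a hydrolase gene and 2 others, had depletion changes of 2.32, 1.60, 1.89 and 2.25. The AAA-type ATPase genes AT3G28510, AT3G28540 and AT3G28580 had 5.10, 2.25 and 3.15. Similar genes side by side can share probes, and the 104 members with no listed gene could not be placed.

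In lbd38, a group that the rule did not use, replicate 1 had the highest value of its group at 125 of 197 members (63.5%, against 40.2% of all probe sets). In lbd37, replicate 1 had it at 76 members (38.6%, against 31.7%) and replicate 2 the lowest at 99 (50.3%, against 32.0%). The median SD of a member was 0.17 in lbd38 and 0.15 in lbd37, against 0.09 and 0.08 over all probe sets.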
